A study of Mus musculus with 16 samples.

Results

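The 10 genes described here are the BH3-only and BAX death activators of the BCL2 family: Bcl2l11 (BIM), Bid, Bbc3 (PUMA), Bmf, Pmaip1 (NOXA), Bik, Bad, Hrk, Bax and Bak1. They were named by symbol, and earlier results of these data were known when they were chosen. All 10 were found among the 49584 genes listed in the count table. RNA was sequenced from splenic germinal centre B cells of C57BL/6J mice that were 3 months old and had received sheep red blood cells 8 days earlier. All sorted cells were B220+, FAS+ and CD38-. The CXCR4+ CD86- fraction gave centroblasts, which proliferate in the dark zone, and the CXCR4- CD86+ fraction gave centrocytes, which undergo selection in the light zone. The mutant genotype was Ezh2(Y641F)fl/wt with Cγ1-cre, a single conditional allele that encodes the Y641F form of EZH2, and the control genotype was Cγ1-cre without it, so every group held the recombinase. Cγ1-cre is expressed from the locus of the IgG1 constant region, which restricts recombination to activated B cells that transcribe it, and the share of sorted cells that had recombined is not given. There were 4 libraries in each of the 4 groups, and nothing beyond the word biological in the design text ties them to separate mice, so the p-values measure the spread between these libraries. The labels give the same litter for all of them.

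Apoptosis through mitochondria is decided among relatives of BCL2. BAX and BAK1 are the effectors that open the outer mitochondrial membrane, survival proteins such as BCL2 and MCL1 hold them in check, and BH3-only proteins tip the balance by engaging the effectors directly (BIM, BID and PUMA) or by occupying the survival proteins (BMF, NOXA, BIK, BAD and HRK). Germinal centre B cells die readily unless selected, and BIM is a main mediator of B cell death. EZH2 methylates lysine 27 of histone H3, a repressive mark that is often placed at CpG-rich promoters.

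Bcl2l11 and Bmf were the members whose transcripts moved farthest in opposite directions in mutant centrocytes, and both lie on chromosome 2. Their promoters are shown for that reason, as the 250 bases before a transcription start in RefSeq (GRCm38.p6), 5′ to 3′ along the gene's own strand, with CpG dinucleotides in capitals.
Bcl2l11, chr2:128125788-128126037, plus strand: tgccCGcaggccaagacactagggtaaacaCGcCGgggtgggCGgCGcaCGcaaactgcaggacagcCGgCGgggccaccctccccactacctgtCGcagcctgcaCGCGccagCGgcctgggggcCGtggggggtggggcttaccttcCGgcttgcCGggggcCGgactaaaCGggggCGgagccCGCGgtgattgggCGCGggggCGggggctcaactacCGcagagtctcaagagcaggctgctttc
Bmf, chr2:118549687-118549936, minus strand: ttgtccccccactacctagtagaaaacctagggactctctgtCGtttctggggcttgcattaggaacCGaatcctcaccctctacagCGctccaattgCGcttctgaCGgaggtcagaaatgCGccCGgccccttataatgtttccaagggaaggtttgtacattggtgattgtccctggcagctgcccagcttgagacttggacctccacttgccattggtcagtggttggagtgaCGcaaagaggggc
The Bcl2l11 promoter held 24 CpG and was 72% GC, a CpG count reached by 12% of 32851 promoter windows of this length. The Bmf promoter held 8 CpG and was 54% GC, a count reached by 43% of them. Promoter windows were examined for 8 of the 10 members, all but Pmaip1 and Bik, and all 8 had at least the median of 6 CpG of all windows. For Hrk, Bbc3 and Bak1 the RefSeq start used lay 5116, 1190 and 382 bases from the annotated start of the gene. Searched on both strands, the core of the FoxO binding motif, TGTTTAC, was present in the Bcl2l11 window and in none of the other 7, against 3.17% of all windows. The E-box CACGTG was present in the Bax window alone, against 6.02% of all windows. These matches describe the letters only.

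Each library held 35230563 to 44466911 counted reads, and 15240 genes had enough reads to be tested, 9 of the members among them. Levels are given in CPM, counts relative to the scaled total of the library, as mean ± SD with n = 4, and differences as log2 fold changes ± SE from the edgeR quasi-likelihood test, with p adjusted over all tested genes and a threshold of 0.05. Ezh2 averaged 289 CPM in control and 222 in mutant centroblasts, and 245 and 189 CPM in control and mutant centrocytes, and these counts do not tell the mutant from the normal allele. The sort gene Cxcr4 averaged 444 and 401 CPM in control and mutant centroblasts and 197 and 160 CPM in the centrocytes. The germinal centre marker Bcl6 averaged 471 to 517 CPM in the 4 groups, the summed T cell markers reached 12.8 CPM at most, and Cd3e averaged at most 0.142 CPM. Macrophage markers other than Apoe and Ctsb summed to 338 and 342 CPM in mutant centrocytes 3 and 4 against 55.9 to 129 CPM for all remaining centrocyte libraries and 30.6 to 110 CPM for centroblasts. With Apoe and Ctsb the macrophage sum was higher in every mutant than in every control library, 973 to 1075 against 399 to 835 CPM in centroblasts and 1006 to 1459 against 640 to 723 CPM in centrocytes, and the part of this shift in the differences between genotypes was not tested. Between cell types, naive B cell markers summed to 315 to 341 CPM in control and 294 to 425 CPM in mutant centroblasts, and to 911 to 1110 and 884 to 1066 CPM in the centrocytes. Plasma cell markers summed to 1564 to 1892 and 1581 to 2213 CPM in control and mutant centroblasts, and to 988 to 1212 and 944 to 1257 CPM in the centrocytes. Most of this sum was Jchain, at 1415 and 818 CPM in control centroblasts and centrocytes, and the other markers did not all follow it. Of the 6 plasma cell markers, 2 were higher and 1 was lower in control centrocytes (median log2 difference 0.36). In mutant centrocytes 1 was higher and 2 were lower (median -0.13). The part of these shifts in the differences between cell types was not tested. The dependence of counts on the GC content of the gene ran from -0.62 to 0.35 log2 per 10% GC among the control centroblast libraries and from -0.23 to 0.25 in the other 12. Y-linked transcripts showed libraries 1 and 2 of each group to be male and 3 and 4 female. In such bulk samples fewer cells of a type and less RNA per cell cannot be told apart.

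Per length, the effectors and Bid were the most abundant members, and the order of the rest depended on the group. In RPKM, which is CPM per kilobase of exon, control centroblasts had Bak1 at 80.0, Bid at 54.0, Bax at 53.5, Bad at 17.2, Bcl2l11 and Bmf both at 11.5, Pmaip1 at 7.09, Bbc3 at 1.77 and Bik at 0.412. The libraries of Bid and Bax overlapped in this group, as did those of Bad, Bcl2l11 and Bmf. In mutant centrocytes the order was Bid 75.6, Bak1 75.1, Bax 70.2, Bmf 22.3, Bad 15.6, Pmaip1 3.98, Bcl2l11 3.83, Bbc3 2.21 and Bik 0.398 RPKM. Bcl2l11 and Bmf, level with each other in control centroblasts, thus stood at 3.83 and 22.3 RPKM there, with 7.21 and 15.3 RPKM in mutant centroblasts and 7.91 and 12.8 RPKM in control centrocytes between. In mutant centrocytes the libraries of Bid, Bak1 and Bax overlapped, as did those of Bmf and Bad and those of Pmaip1 and Bcl2l11. With lengths from the longest transcript in place of all exons, Bax passed Bak1 and Bad passed Bmf in both centrocyte groups, and Bcl2l11 passed Pmaip1 in mutant centrocytes. Hrk, known from neuronal death, had 1 read in 1 of 16 libraries (mutant centrocyte 3) and could not be tested. A count of 0 allows up to 0.0687 to 0.0861 CPM in these libraries, counting error only.

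**Figure D1:**
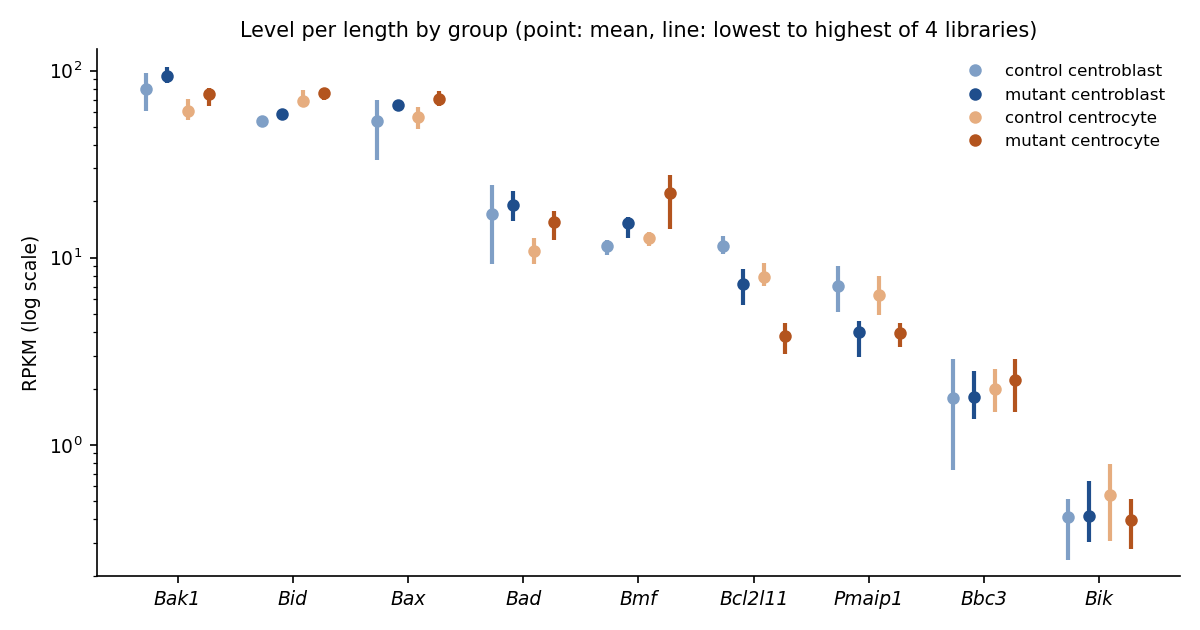
Level per length of 9 members in RPKM on a log axis, with a point for the mean of each group and a line from the lowest to the highest of its 4 libraries. Bak1, Bid and Bax lie highest in all 4 groups, and Bcl2l11 runs from 11.5 in control centroblasts down to 3.83 in mutant centrocytes.

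In centroblasts, mutant cells had less Bcl2l11 and less Pmaip1 than control cells, and no member passed the test upwards. The 2 falls among 9 tested members stand against 10.5% of all tested genes called in this comparison, 4.06% upwards and 6.40% downwards. The libraries of the genotypes did not overlap for 3 members (Bcl2l11, Pmaip1 and Bmf), against 14.4% of all tested genes (6.36% with mutants higher and 8.01% with mutants lower). The median log2 difference was 0.11 over the 9 members and 0.00830 over all tested genes. In centrocytes, mutant cells again had less Bcl2l11 and Pmaip1, and more Bmf. These 3 members stand against 16.5% of genes called, 7.37% upwards and 9.15% downwards. Libraries did not overlap for 4 members (the same 3 and Bax), against 23.5% of genes (11.1% with mutants higher and 12.4% lower). The median was 0.15 over the members and 0.00140 over all genes.

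Bcl2l11 encodes BIM, the activator that engages BAX and BAK1 directly. It measured 105, 84.8, 83.9 and 94.6 CPM in control centroblasts 1 to 4 and 53.6, 44.7, 69.6 and 63.6 CPM in the mutant ones. In centrocytes it was at 57.0, 59.2, 62.7 and 75.1 CPM in controls and at 32.0, 30.6, 24.5 and 35.9 CPM in mutants. Every mutant library lay below every control library of its cell type, and mutant centrocytes lay below all other libraries. In centroblasts the fall was from 92.0 ± 9.80 to 57.9 ± 11 CPM, a log2 fold change of -0.67 ± 0.15 (95% interval -0.98 to -0.35, adjusted p = 0.00556). In centrocytes it was from 63.5 ± 8.07 to 30.7 ± 4.73 CPM, or -1.05 ± 0.15 (-1.37 to -0.73, adjusted p = 0.000178), a 2.06-fold difference. Bcl2l11 passed the test with each library left out in turn and under every other setting, and was at -1.01 without mutant centrocytes 3 and 4. The gene spans 128126038 to 128162547 on the plus strand of chromosome 2 (mm10), and its exons overlap those of no other annotated gene.

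**Figure D2:**
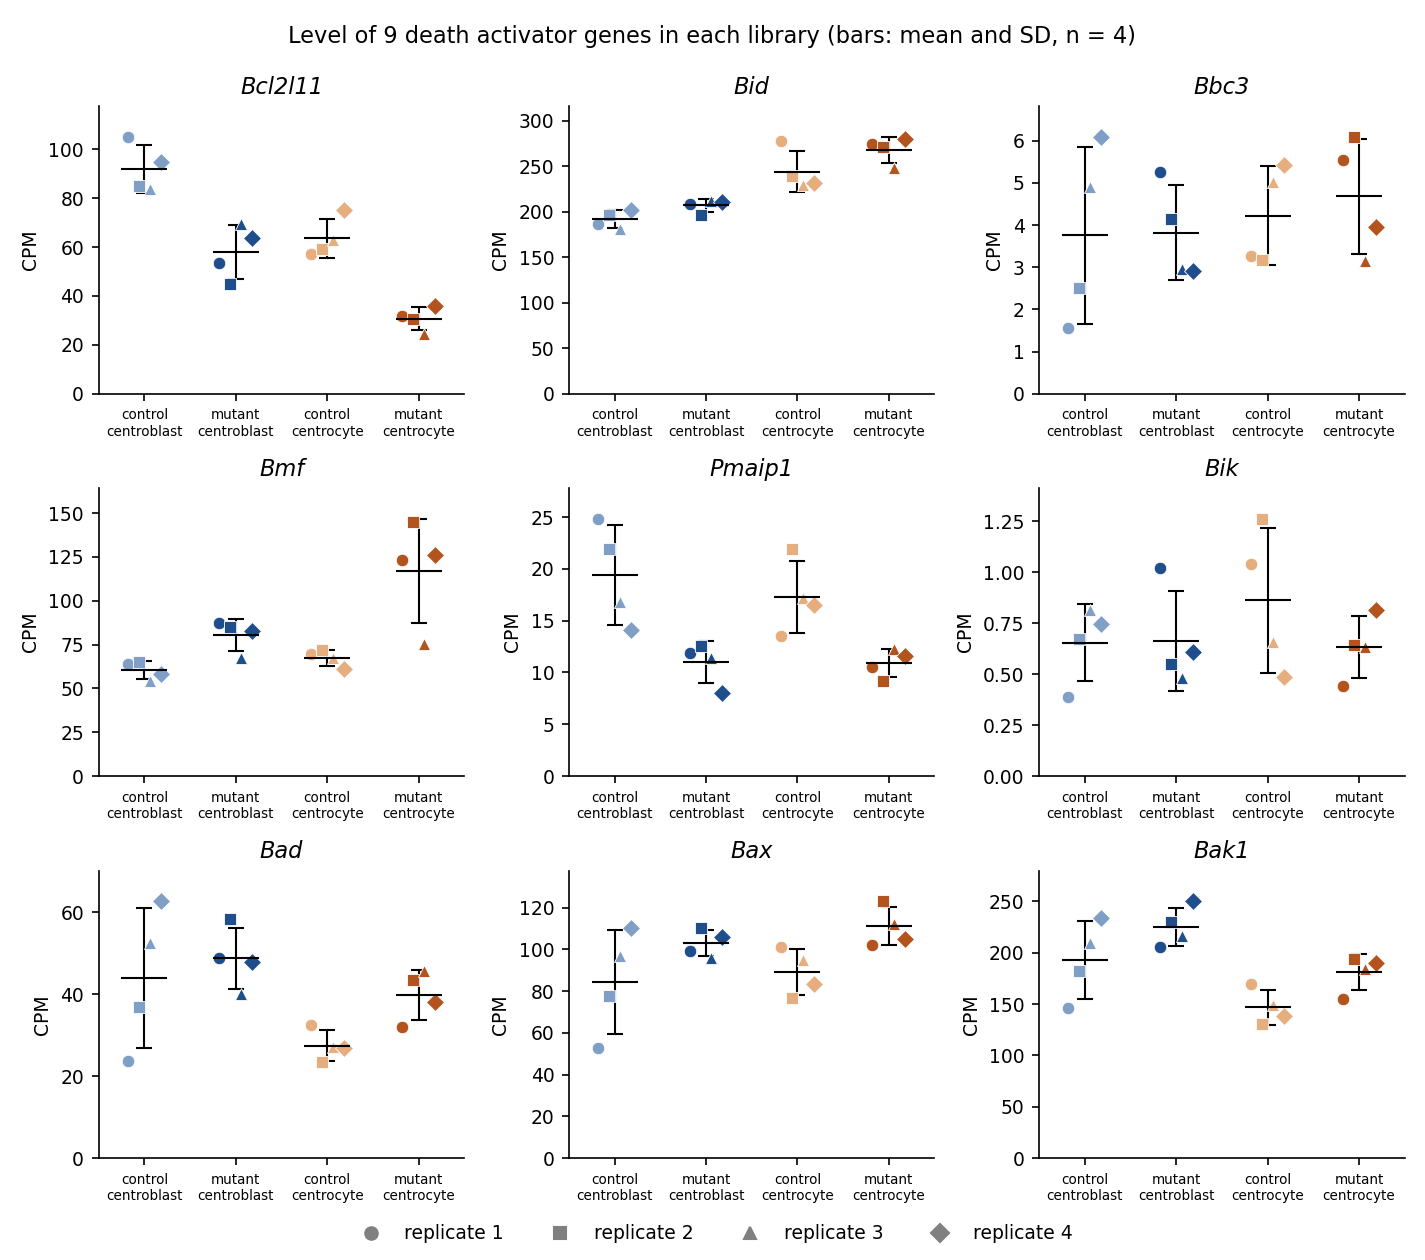
CPM of 9 members in each of the 16 libraries (a marker per replicate number), with the mean and SD of each group of 4 as a bar and whiskers. Bcl2l11 and Pmaip1 are lower and Bmf is higher in mutant than in control libraries of both cell types without overlap, while Bad, Bax and Bak1 spread most widely among the control centroblasts.

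The other activators did not pass the test between genotypes. Bid links death receptors to mitochondria once caspase 8 has cut it. Its log2 difference in mutant cells was 0.11 ± 0.084 in centroblasts (-0.0740 to 0.29, adjusted p = 0.488) and 0.13 ± 0.084 in centrocytes (-0.0490 to 0.32, adjusted p = 0.295). In centrocytes Bid passed under 1 of 10 other settings (adjusted p = 0.0381). Bbc3, a target of p53, was low and variable, at 1.55, 2.5, 4.90 and 6.09 CPM in control centroblasts against 5.27, 4.14, 2.95 and 2.92 CPM in mutant ones. Its intervals, -0.75 to 0.79 in centroblasts and -0.61 to 0.91 in centrocytes, take in changes as large as that of Bcl2l11 in centroblasts. Of the exons of Bid, 17.7% of the bases are shared with Bcl2l13 on the opposite strand, and whether counting used strand is not given, so its level could hold reads of that gene.

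Among the sensitizers, Bmf went up and Pmaip1 went down. BMF is held at motor complexes of the cytoskeleton in healthy cells and occupies survival proteins when released. Its transcript measured 64.0, 65.1, 54.4 and 58.0 CPM in control and 87.3, 84.9, 67.3 and 83.0 CPM in mutant centroblasts, and 69.4, 72.0, 67.3 and 61.0 CPM in control and 123, 145, 75.4 and 126 CPM in mutant centrocytes. All mutant libraries lay above the control libraries of the same cell type, with mutant centrocyte 3 far below the other 3 of its group. The rise in centrocytes, from 67.4 ± 4.68 to 117 ± 29.6 CPM, was 0.80 ± 0.15 on the log2 scale (0.47 to 1.13, adjusted p = 0.00184). It passed with each library left out, and was 0.96 without mutant centrocyte 3 and 1.00 without mutant centrocytes 3 and 4, the pair high in macrophage markers. Of 19 tested macrophage markers, Apoe and Ctsb included, 4 were higher and 1 was lower in mutant than in control centrocytes, with a median of 0.97. In centroblasts Bmf differed by 0.42 ± 0.15 (0.0880 to 0.75) without passing (adjusted p = 0.0939). With the replicate number as a block it passed (adjusted p = 0.0480), as it did once sex was a covariate (0.0483) and with the block plus an offset for GC content and length (0.00618).

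**Figure D3:**
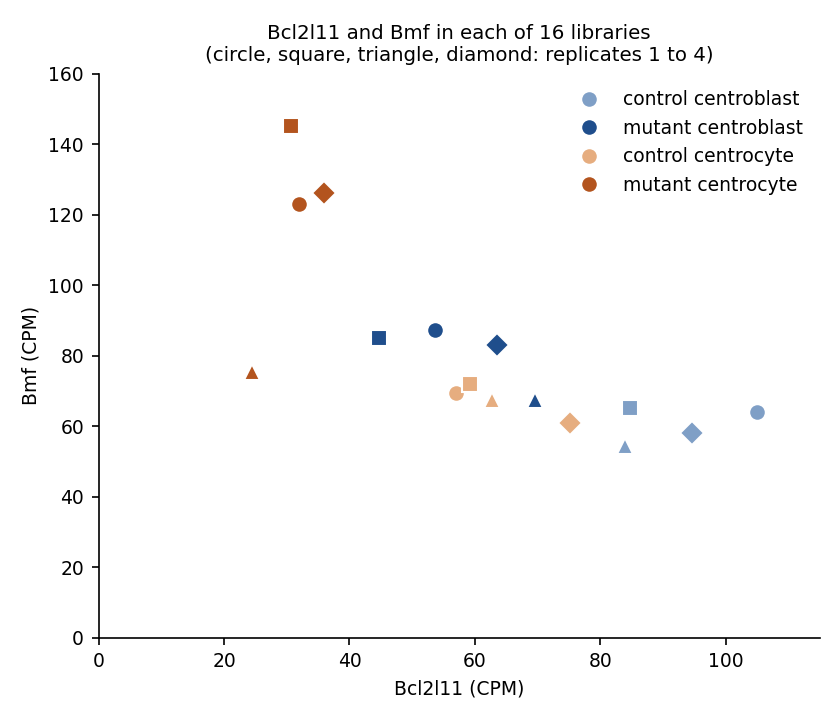
CPM of Bmf (vertical) against CPM of Bcl2l11 (horizontal) in each of the 16 libraries, coloured by group and with a marker shape per replicate number. Control centroblasts lie low for Bmf, 54.4 to 65.1 CPM, and highest for Bcl2l11, and mutant centrocytes have the lowest Bcl2l11, 24.5 to 35.9 CPM, with Bmf from 75.4 to 145 CPM.

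Pmaip1 encodes NOXA, which binds MCL1 in particular. It measured 24.8, 21.9, 16.8 and 14.1 CPM in control and 11.9, 12.6, 11.4 and 8.02 CPM in mutant centroblasts, a log2 fold change of -0.82 ± 0.19 (-1.24 to -0.40, adjusted p = 0.00950). In centrocytes it was at 13.5, 21.9, 17.2 and 16.5 CPM in controls and 10.5, 9.13, 12.3 and 11.6 CPM in mutants, or -0.67 ± 0.19 (-1.09 to -0.25, adjusted p = 0.0244). No mutant library reached the lowest control library of its cell type. The Pmaip1 call in centroblasts held with each library left out, but that in centrocytes was lost without control centrocyte 2 (adjusted p = 0.0884), control centrocyte 3 (0.0507) or mutant centrocyte 2 (0.0712). It was also lost without mutant centrocytes 3 and 4 together, where the log2 fold change was -0.81 (adjusted p = 0.0620). Libraries of mutant centroblasts and mutant centrocytes overlapped.

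The remaining sensitizers did not pass between genotypes. Bad, whose protein is kept inactive by growth factor kinases, measured 23.8, 37.0, 52.6 and 62.7 CPM in control and 48.9, 58.3, 40.1 and 48.0 CPM in mutant centroblasts, and 32.6, 23.6, 27.2 and 26.8 CPM in control and 32.0, 43.6, 45.6 and 38.2 CPM in mutant centrocytes. Its difference in centrocytes was 0.53 ± 0.22 (0.0550 to 1.01, adjusted p = 0.105). Bad passed there with no filter (0.0320), with the GC and length offset alone (0.0234) and with the block (0.0356), and with the compared groups alone (0.0151). Bik, an endoplasmic reticulum protein, had 14 to 53 reads per library, 0.388 to 1.26 CPM. Its intervals, -0.76 to 0.79 in centroblasts and -1.21 to 0.32 in centrocytes, are too wide to compare it with the others.

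The effectors stood a little higher in mutant groups without passing the test. Bax measured 52.7, 77.7, 96.6 and 110 CPM in control and 99.3, 110, 96.1 and 106 CPM in mutant centroblasts, and 101, 76.7, 95.1 and 83.4 CPM in control and 102, 123, 112 and 105 CPM in mutant centrocytes. Its centrocyte libraries did not overlap, with a difference of 0.31 ± 0.16 (-0.0430 to 0.67, adjusted p = 0.203). Bak1 averaged 193 ± 37.6 and 225 ± 18.8 CPM in control and mutant centroblasts and 147 ± 17.1 and 181 ± 17.5 CPM in control and mutant centrocytes. The Bak1 differences were 0.23 ± 0.13 (adjusted p = 0.327) and 0.30 ± 0.13 (adjusted p = 0.125), and the latter passed with the GC and length offset (0.0433). Overlapping annotation makes these levels uncertain: Bax shares 12.2% of its exon bases with Gm45808 on its own strand, Bak1 7.35% and 18.2% with 2 entries named Ggnbp1 on the other strand, and Bad 20.5% with Gpr137 on the other strand.

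Bad, Bax, Bak1 and Bbc3 are the GC-rich members other than Bik (57.1% to 65.2% GC in the longest transcript). In control centroblasts, all 4 were lowest in library 1 and highest in library 4, the libraries with GC trends of -0.62 and 0.35 log2 per 10% GC. The part of the GC trend in their differences was not tested beyond the offset. Bcl2l11, at 48.0% GC, kept a log2 fold change of -0.56 (adjusted p = 0.00224) in centroblasts and -0.92 (adjusted p = 2.9e-05) in centrocytes with that offset. Pmaip1, the member of lowest GC content (42.1%), ran the opposite way in control centroblasts, from 24.8 CPM in library 1 to 14.1 CPM in library 4. Under settings other than single libraries left out, Pmaip1 ranged from -0.82 to -0.68 in centroblasts and -0.81 to -0.52 in centrocytes. The part of the GC trend in these differences was not tested beyond the offset. Over all genes the offset moved the share of calls that were higher in mutant cells from 38.8% to 56.7% in centroblasts and from 44.6% to 63.4% in centrocytes, and the share higher in centrocytes from 53.7% to 38.4% in controls and from 55.8% to 40.3% in mutants.

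**Figure D4:**
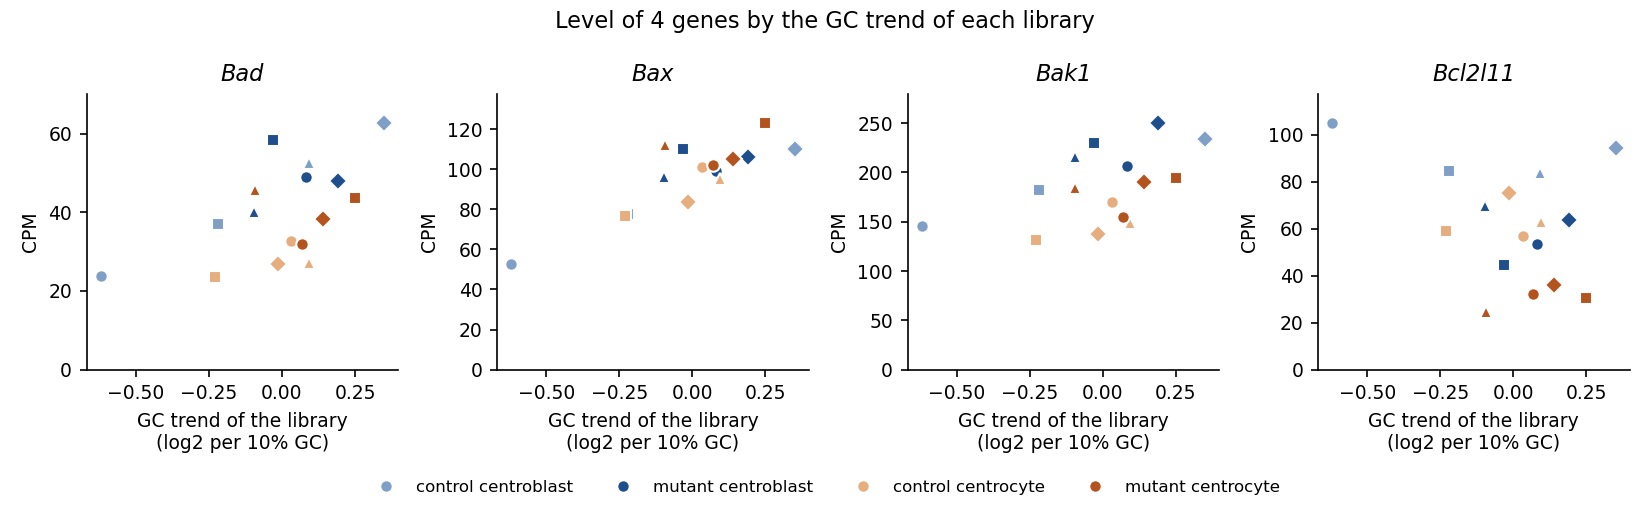
CPM of Bad, Bax, Bak1 and Bcl2l11 against the GC trend of each of the 16 libraries (log2 per 10% GC), coloured by group and with circles, squares, triangles and diamonds for replicates 1 to 4. Control centroblast 1, at a trend of -0.62, is the lowest control centroblast for the first 3 genes and the highest library of all for Bcl2l11.

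Between cell types, Bcl2l11 was lower and Bid higher in centrocytes than in centroblasts of both genotypes. In controls 4 of 9 members passed, 1 upwards and 3 downwards, against 27.8% of all tested genes (14.9% upwards and 12.9% downwards). The members are few, and whether their share differs from that of genes at large was not tested. Libraries of the cell types did not overlap for 2 members, Bcl2l11 and Bid, against 27.7% of genes (15.4% higher and 12.3% lower). In mutants 3 members passed, 2 upwards and 1 downwards, against 16% of genes (8.92% upwards and 7.07% downwards). Libraries did not overlap there for 3 members, Bcl2l11, Bid and Bak1, against 22.1% (11.5% higher and 10.5% lower). The medians over the members, 0.0800 in controls and -0.0140 in mutants, stand beside 0.00490 and 0.0180 over all genes.

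Bcl2l11 fell by 0.54 ± 0.14 on the log2 scale in control centrocytes relative to control centroblasts (adjusted p = 0.0109) and by 0.91 ± 0.15 in mutant ones (adjusted p = 0.000321). Ordered by level, control centroblasts (83.9 to 105 CPM) stood above control centrocytes (57.0 to 75.1 CPM) and mutant centroblasts (44.7 to 69.6 CPM), which overlapped, and mutant centrocytes (24.5 to 35.9 CPM) came last. Bid measured 187, 197, 181 and 202 CPM in control and 208, 197, 212 and 211 CPM in mutant centroblasts, and 278, 239, 229 and 232 CPM in control and 274, 271, 248 and 280 CPM in mutant centrocytes. The rise of Bid was 0.35 ± 0.084 in controls (adjusted p = 0.00515) and 0.38 ± 0.084 in mutants (adjusted p = 0.00508), held with each library left out, and fell short when unexpressed genes were also tested (0.0513 and 0.0578).

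Bad and Bak1 were lower in control centrocytes than in control centroblasts, by log2 fold changes of -0.68 ± 0.22 (adjusted p = 0.0294) and -0.39 ± 0.13 (adjusted p = 0.0333), with overlapping libraries. Both calls were lost when any of 5 libraries was left out. For Bad the adjusted p was 0.0826 without control centroblast 3, 0.106 without control centroblast 4, and 0.0884, 0.0673 and 0.0693 without control centrocyte 2, 3 or 4. For Bak1 the same 5 libraries gave 0.0845, 0.106, 0.110, 0.0718 and 0.0916. In mutants Bak1 differed by -0.32 ± 0.13 (adjusted p = 0.109) with libraries that did not overlap, and passed with the GC and length offset at -0.46 (0.000782), as did Bad at -0.44 (0.0423).

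Bmf rose from centroblasts to centrocytes in mutants by 0.54 ± 0.15 (adjusted p = 0.0201), with overlapping libraries. This Bmf call was lost without mutant centroblast 3 (adjusted p = 0.0707) or mutant centrocyte 1 (0.0556), 2 (0.0802) or 4 (0.0525), and stood at 0.74 without mutant centrocytes 3 and 4. In controls Bmf differed by 0.16 (-0.17 to 0.49, adjusted p = 0.464), and by -0.0250 with the GC and length offset. Pmaip1 did not pass in either genotype, at -0.16 (-0.58 to 0.25) in controls and -0.0140 (-0.43 to 0.40) in mutants. Bax differed by 0.0800 in controls (-0.28 to 0.44) and 0.10 in mutants (-0.25 to 0.46), and the offset turned both negative, to -0.11 and -0.10.

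The comparisons share libraries, so their values are set side by side and the difference itself was tested as an interaction of genotype and cell type. By edgeR no member passed, and 0% of all tested genes did. No member had an unadjusted p under 0.05, against 429 of all genes, and DESeq2 called 0 members and 1 gene. For Bcl2l11 the interaction, the genotype difference in centrocytes minus that in centroblasts, was -0.38 ± 0.20 with an interval of -0.82 to 0.0690. For Bmf it was 0.38 ± 0.21 with an interval of -0.0840 to 0.85. The adjusted p was 0.999 for both. The genotype differences of Bcl2l11, Bmf and Pmaip1 are thus not shown to differ between centroblasts and centrocytes.

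**Figure D5:**
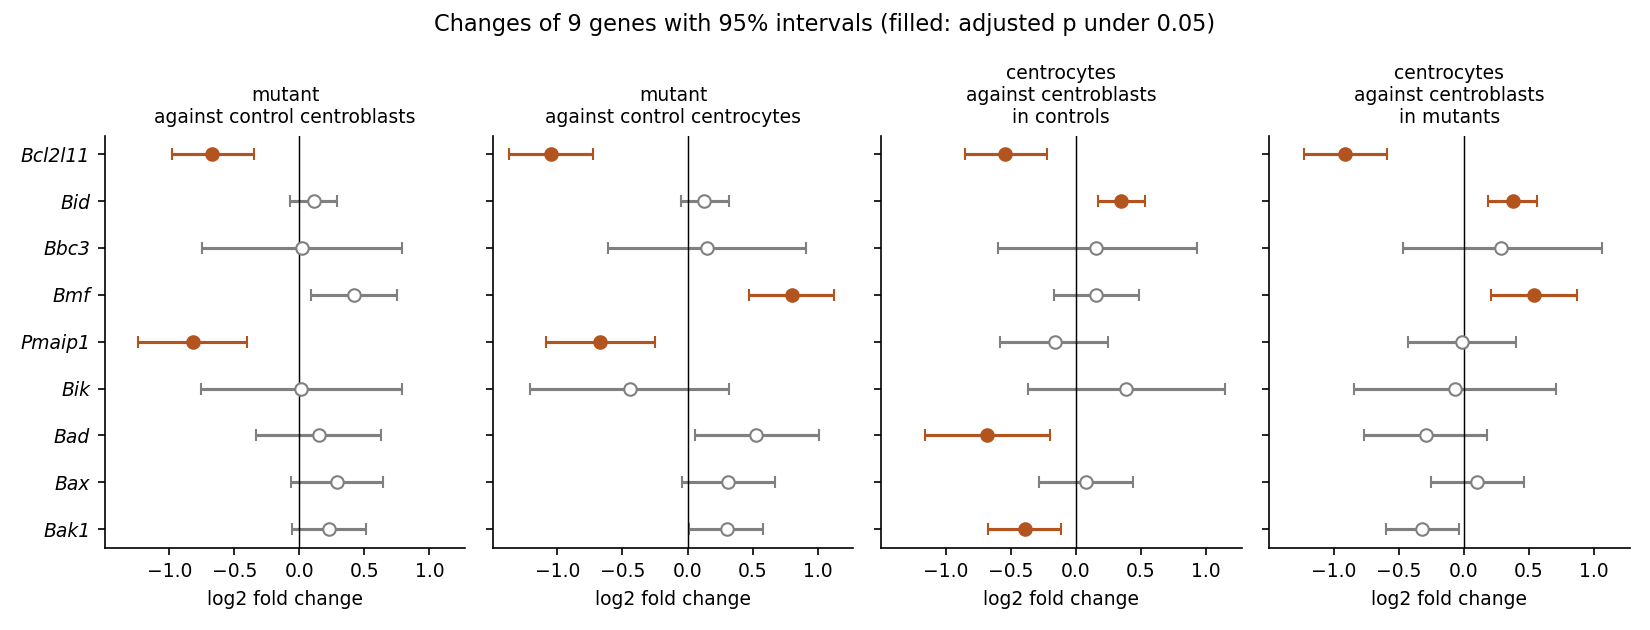
Log2 fold changes of 9 members in the 4 comparisons of 2 groups, with 95% intervals from the edgeR fit, where filled points mark an adjusted p under 0.05. Bcl2l11 is below 0 and called in all 4 comparisons, from -0.54 to -1.05, and Bmf reaches 0.80 in mutant against control centrocytes.

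The genes with the profile nearest to each called member were found by the root mean square difference of log2 CPM, centred on each gene's own mean, over the 16 libraries. Nearest to Bcl2l11, whose own SD over the libraries was 0.60, were Arhgap19 (0.13), Tram2 (0.14), Mdm1 (0.18), Dusp5 (0.21) and Rmi2 (0.22). Arhgap19 averaged 163 and 109 CPM in control and mutant centroblasts and 105 and 54.9 CPM in control and mutant centrocytes. Nearest to Bmf (own SD 0.40) were Il10ra (0.17), Cnr2, Sema4d and Bri3bp (0.19 each) and Pik3r4 (0.20). Nearest to Pmaip1 (own SD 0.45) were Pja2 (0.16), Usp33 (0.17), and Wwp1, Mtm1 and Ccdc82 (0.18 each). These libraries share their groups, depth and GC trends, and the values describe likeness only.

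The survival proteins that the BH3-only proteins bind changed most between cell types. Of 7 listed genes 6 were tested. In control centrocytes 5 were higher and 0 lower than in centroblasts, with a median of 1.04, and in mutants 4 were higher and 0 lower, with a median of 0.92, against 27.8% and 16% of all genes called. Naive B cell markers moved the same way, with 4 of 6 higher and 0 lower in centrocytes of both genotypes and medians of 1.14 in controls and 1.20 in mutants, and their part in these differences was not tested. Bcl2, the founding survival gene, of controls averaged 3.42 ± 0.457 CPM in dark zone and 13.3 ± 2.19 CPM in light zone cells (log2 fold change 1.95, adjusted p = 1.16e-06). Between genotypes 2 were higher and 1 lower in each cell type, against 10.5% of genes called in centroblasts and 16.5% in centrocytes. Bcl2l2 (BCL-W) fell from 5.24 ± 0.406 to 3.10 ± 0.613 CPM in centroblasts (-0.76, adjusted p = 0.00586) and from 9.42 ± 0.245 to 4.86 ± 1.01 CPM in centrocytes (-0.95, adjusted p = 0.000854).

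Bcl2a1b and Bcl2a1d, near-identical copies of the survival gene A1 whose reads may be split between them, rose in mutant cells. Bcl2a1b differed by 0.71 in centroblasts (adjusted p = 0.0210), a call lost without control centroblast 2 (0.0666) or 3 (0.0740) or mutant centroblast 2 (0.0911), and by 0.78 in centrocytes (0.00848). Bcl2a1d went from 2.31 to 4.63 CPM in centroblasts (1.00, adjusted p = 0.00465) and from 5.65 to 10.6 CPM in centrocytes (0.90, 0.00615). Without mutant centrocytes 3 and 4 the differences in centrocytes were 0.64 for Bcl2a1b and 0.80 for Bcl2a1d and did not pass (0.0766 and 0.0661). Mcl1, the partner of NOXA and the most abundant of the list, averaged 645 ± 160 and 537 ± 68.2 CPM in control and mutant centroblasts and 558 ± 40.6 and 498 ± 55.7 CPM in centrocytes, and passed in no comparison.

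Downstream of the effectors, the apoptosome, its caspases and their inhibitors gave 1 rise and 2 falls among 15 tested genes in mutant centroblasts and 3 rises and 1 fall in mutant centrocytes, against 10.5% and 16.5% of all genes called. Casp6, an executioner caspase, rose from 33.7 ± 2.54 to 51.4 ± 3.68 CPM in centroblasts (0.61, adjusted p = 0.000744) and from 41.0 ± 4.86 to 68.8 ± 3.76 CPM in centrocytes (0.75, adjusted p = 0.000136). Without mutant centrocytes 3 and 4 the list kept 1 rise and 0 falls. Between cell types there were 3 rises and 2 falls in controls and 3 rises and 1 fall in mutants, against 27.8% and 16% of genes, among them Birc3, which encodes an inhibitor of apoptosis, from 114 ± 8.38 to 176 ± 10.4 CPM in controls (0.63, adjusted p = 3.24e-05).

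Regulators that act on the members, 16 in number and all tested, gave 1 rise and 1 fall in mutant centroblasts and 1 rise and 2 falls in mutant centrocytes, against 10.5% and 16.5% of all tested genes called, so these shares are near those of genes at large. Dynll2 encodes the dynein light chain that tethers BMF. It averaged 68.8 ± 5.68 and 48.1 ± 10.5 CPM in control and mutant centroblasts (-0.51, adjusted p = 0.0168). This call was lost without mutant centroblast 1 (-0.49, 0.0537) and with the compared groups alone (-0.52, 0.0878). In centrocytes Dynll2 averaged 57.2 ± 4.70 and 40.6 ± 1.44 CPM (-0.49, adjusted p = 0.0163), and the difference was -0.45 without control centrocyte 2 (0.0565) and -0.48 without mutant centrocytes 3 and 4 (0.110), of similar size without passing. Akt2, a kinase of the family that phosphorylates BAD and FoxO proteins, rose in centrocytes from 66.8 ± 9.17 to 93.1 ± 5.28 CPM (0.48, adjusted p = 0.00936). The rise of Akt2 in centroblasts (0.38, adjusted p = 0.0459) held without control centroblast 4 but was lost without any of the other 7 libraries (0.0704 to 0.154), with no filter (0.0876), with the replicate block (0.0545) and with the compared groups alone (0.114). Between cell types 1 regulator rose and 5 fell in controls, against 27.8% of genes called, and 0 rose and 4 fell in mutants, against 16%. Akt1 went from 557 ± 145 to 291 ± 24.2 CPM in controls (-0.94) and Pim1, a survival kinase, from 208 ± 17.4 to 103 ± 14.2 CPM in mutants (-1.01). 

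Of 8 genes of the death receptor route, which feeds into mitochondria through BID, 0 passed between genotypes in either cell type by edgeR or DESeq2. By edgeR this stands against 10.5% of all tested genes called in centroblasts and 16.5% in centrocytes. At an unadjusted p under 0.05 there were 0 in centroblasts and 2 in centrocytes, against 3470 and 4767 of 15240 genes. With 8 genes these counts do not show that the route was unchanged. Between cell types 1 was higher and 1 lower in controls, against 27.8% of genes called, and 3 were higher and 0 lower in mutants, against 16%. Cflar, which encodes the caspase 8 inhibitor FLIP, averaged 46.5 ± 3.70 and 69.3 ± 7.43 CPM in control centroblasts and centrocytes (0.58, adjusted p = 0.000443) and 43.5 ± 4.01 and 58.8 ± 2.01 CPM in mutant ones (0.43, adjusted p = 0.00630). Fadd, the adaptor of the receptors, fell from 32.1 ± 1.65 to 23.9 ± 2.43 CPM in controls (-0.43, adjusted p = 0.00904). The other rises in mutants were those of the receptors Tnfrsf10b (1.20, adjusted p = 0.0310) and Tnfrsf1a (2.06, adjusted p = 0.0453), which averaged at most 1.49 CPM in any group. Without mutant centrocytes 3 and 4 they were at 1.11 (0.130) and 0.46 (0.757). The Tnfrsf10b call was also lost without mutant centroblast 1 (0.0704), 2 (0.0785) or 4 (0.0750) or mutant centrocyte 2 (0.0630), 3 (0.0522) or 4 (0.0744). That of Tnfrsf1a was lost without mutant centroblast 1 (0.0837), 2 (0.116) or 4 (0.103) or mutant centrocyte 3 or 4 (0.131 each). Fas, used in the sort, averaged 135 to 152 CPM in the 4 groups.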

How the data were processed

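Counts of reads per gene symbol were deposited as whole numbers without normalization. The submitters' processing notes name Trim Galore and cutadapt, the aligner STAR (version 2.5.3a), featureCounts (version 1.4.5-p1, from Subread) and the mm10 build. Annotation, strand and counting settings are not given in the sources used here. No molecular identifiers are described, so reads copied by PCR are not independent and counting error understates the true error. Naive B cells, which the design text also names, were not analysed here.

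The main test was that of edgeR 4.0.16 under R 4.3.3: filterByExpr by group, TMM scaling, 1 mean per group over all 16 libraries (12 residual degrees of freedom), the quasi-likelihood test, 2-sided, and Benjamini-Hochberg adjustment over 15240 genes. CPM use TMM-scaled totals, and RPKM the exon union of GENCODE M21. Intervals are 95%. The script was tested on simulated data. DESeq2 1.42.0 was an alternative.

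The members and lists were chosen with earlier results of these data known. The rule named all 10 members, up to 4 called genes per direction of each pathway list, the highest uncalled one, and the 5 nearest profiles per member called between genotypes. Of the pathway genes named by this rule, the text gives a part, chosen after their values were seen. One gene of these lists is not reported here. Same-numbered libraries were to count as paired where the deviations of every pair from their group means correlated above 0.1. This held for mutant centroblasts and centrocytes (0.263 to 0.327) and for no other pair of groups. Controls ran from -0.00590 to 0.452. In the mutants number 1 was the best match in both directions, and numbers 2, 3 and 4 were not. Same-numbered libraries also shared their sex, so these correlations do not show that they came from the same mouse. The main test used no pairing. The block gave each replicate number an effect shared by both genotypes, and no fit paired the mutant libraries alone. The block changed no member call between cell types in mutants. Other settings were the compared groups alone, RLE factors, all genes unfiltered, a minimum mean of 1 CPM, the replicate block, sex as a covariate, a GC and length offset per library (splines with 4 degrees of freedom), that offset with the block, and libraries left out singly or, for mutant centrocytes 3 and 4, together. For pathway lists some of these were chosen after seeing the data.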

Additional observations from a re-analysis of the deposited data

How the results depend on the processing

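Of 850 member results recomputed under other settings, 816 kept their side of the threshold. Among these the direction could change where neither result passed, as it did for Bax between cell types. Of the rest, 22 fell short of the threshold, 12 newly passed it and 0 reversed a call. Members called with a library left out were 2 in mutant against control centroblasts, 2 to 3 in mutant against control centrocytes, 2 to 4 between cell types in controls, 2 to 3 between cell types in mutants and 0 for the interaction. The GC and length offset gave 5 members in mutant against control centrocytes (also 5 with the block) and 5 between cell types in mutants. The compared groups alone gave 2 members between cell types in controls. The cause was not tested. The replicate block alone gave 3, 3, 4, 3 and 0 members in the order above and changed 1 member call, that of Bmf in centroblasts, where numbers are not shown to pair libraries. Over all genes 1595, 2517, 4230, 2438 and 0 passed, and 1588, 2396, 4204, 2446 and 0 with the block. With the offset the first 4 counts were 2679, 4212, 5727 and 3914, and with offset and block 2815, 4364, 5942 and 4068. Without mutant centrocytes 3 and 4 the centrocyte count was 1224, and the groups alone gave 1056 in centroblasts. DESeq2 gave 1 for the interaction. Depth limits Hrk, with 1 read in all, and Bik, with 14 to 53 reads per library.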
